A study of Rattus norvegicus with 16 samples.

Results

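The livers compared here came from male RccHan Wistar rats, 7 to 8 weeks old, that ate either untreated food or the same food with 3000 ppm phenformin for 3 days. Phenformin is a biguanide, a relative of metformin. Comparing the 4 arrays of phenformin livers of day 3 with the 4 arrays of control livers of day 3 uses 8 of the 16 arrays of the study. The other 8 arrays are control and phenformin livers of day 14, made in the same way, and they enter through the shared estimate of the spread and where the later time is set beside the earlier one. The labels give 5 animals per group, 4 arrays per group were analysed here, and each array was taken as 1 animal. The rats shared cages of 2 or 3, and the labels do not say which animals shared one. Each array read total RNA of a 70 mg piece of whole liver, so that fewer cells of a type and less RNA per cell cannot be told apart. All groups had unlimited standard chow, a light-dark cycle of 12 hours and no operation or genetic change stated in the labels.

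Biguanides inhibit complex I of the respiratory chain and lower the energy charge of hepatocytes, the cells that take them up from portal blood. Hepatocytes make most of the liver's RNA and carry out gluconeogenesis, the urea cycle, lipid synthesis and lipoprotein export. The other liver cells are the stellate cells and fibroblasts, which make matrix, the sinusoidal endothelium, the Kupffer cells, the bile duct cells and blood cells. Livers of young rats still grow, and some of their hepatocytes and other cells divide.

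A value is the log2 of the deposited intensity of 1 probe set per gene, given for replicates 1, 2, 3 and 4 of a group in that order. A fold is the ratio of the deposited values, with its 95% interval. The highest log2 value on the arrays of day 3 was 19.91, which is above the range of an array scanner. Any change of scale after RMA (robust multi-array average) is not stated in the sources used here, so a fold is a ratio of deposited values and its relation to RNA amount is unknown. Calls rest on a limma fit of the 4 group means, with p-values adjusted over 22093 genes by the Benjamini-Hochberg method and a threshold of 0.05. These p-values measure the spread between arrays titled as biological replicates, and the small number of arrays limits their precision. "Higher" and "lower" are phenformin relative to control at day 3. The words rose and fell are kept for called genes. The tissue was checked against its defining genes: 17 hepatocyte markers had a mean level of 16.11 ± 0.03 (SD, n = 4) in control livers and 16.04 ± 0.11 in phenformin livers. Array medians lay between 31.8 and 33.9 intensity units on the 8 arrays, and the lowest correlation between 2 arrays of a group was 0.991.

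Few genes passed the threshold at day 3, and most of those that passed were lower. Of 22093 genes, 55 rose (0.249%) and 199 fell (0.901%), or 1.15% in either direction. The median log2 change over all genes was 0.01, and 9 in 10 genes changed between -0.33 and 0.31 on the log2 scale. Among called genes 14 rose and 64 fell by at least 2-fold, and 4 rose and 11 fell by at least 4-fold. The median called rise was 1.62-fold and the median called fall 1.73-fold. Before adjustment 2351 genes (10.6%) had a p below 0.05, 1056 of them higher (4.78%) and 1295 lower (5.86%), where 1105 would be expected with no effect. The arrays of both groups did not overlap for 776 genes in the higher direction (3.51%) and 921 in the lower direction (4.17%), or 7.68% in all. Leaving out control replicate 1 or phenformin replicate 3 of day 3 left 17 rises each, and leaving out control replicate 1 left 85 falls. Of the 113 called genes named below, 46 kept their call in each of 26 other settings. In the settings that left out no single array, the fit of day 3 arrays alone among them, 64 kept it. A lost call is not given below for every gene that lost one.

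**Figure D1:**
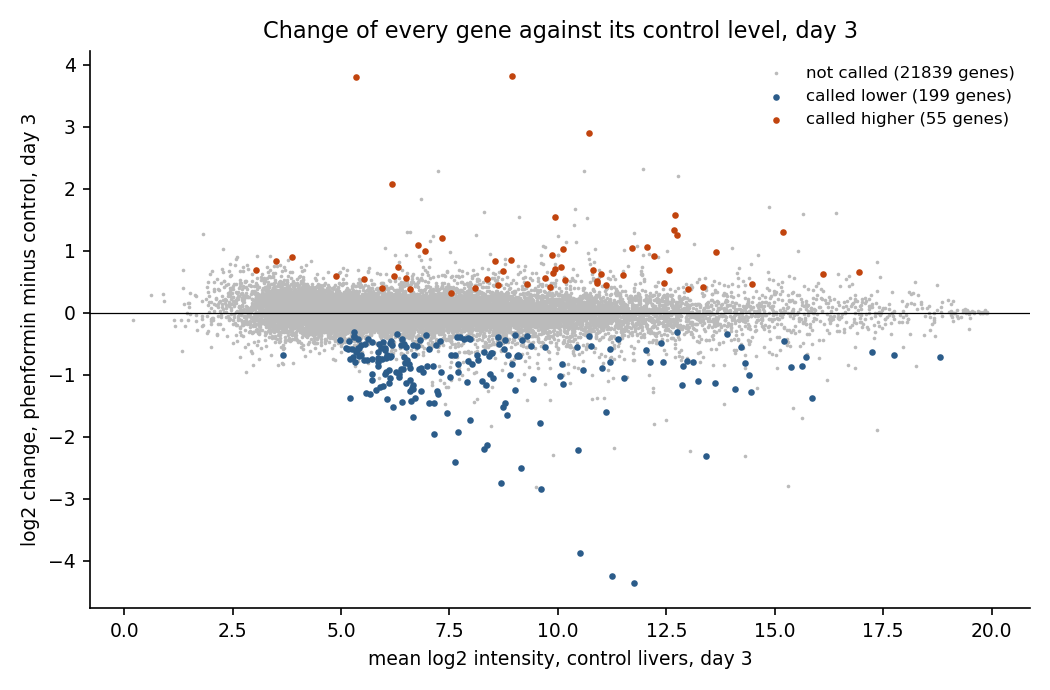
Log2 change of each of the 22093 genes (phenformin minus control, day 3) against its mean log2 intensity in control livers of day 3. Red points are the 55 genes called higher and blue points the 199 called lower. The falls gather among genes of moderate level and the rises among genes of higher level.

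Rises and falls came from genes of different abundance. Genes called higher had a median control level of 9.88, while genes called lower had one of 7.21. When all genes were divided into 3 parts by their mean level, the part of lowest level held 3 rises and 19 falls, the middle part 8 rises and 96 falls, and the part of highest level 44 rises and 84 falls. The 1313 measured olfactory, vomeronasal and taste receptor genes, which liver is not known to use, show the level of the background. Their control levels had a median of 4.03 and a 95th percentile of 5.22. Of these receptors 3 rose and 0 fell, a share of 0.228% rising, near the 0.249% of all genes rising. Of their 1313 values 822 lay above 0, with a median of 0.07, where 52.0% of all genes lay above 0. At an unadjusted p under 0.05 in limma 84 were higher and 25 lower (4.78% and 5.86% of all genes were). The 3 calls were Olr1493 and the vomeronasal receptor Vom2r70, which rose 1.79-fold and 1.85-fold, and Or14n1. The name of Or14n1 is given here only because it had been called, and its call was lost without any 1 of 9 arrays. The calls of Olr1493 and Vom2r70 were lost without any 1 of 5 and 3 arrays, and when only day 3 arrays were fitted. With the mean of its probe sets Olr1493 did not pass (adjusted p = 0.271 in limma).

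Genes of cell division made up the largest group of falls. Over 7 lists with 193 measured genes, 67 fell (34.7%, against 0.901% of all genes), 0 rose and 126 did not pass. The median log2 change of the 193 genes was -0.39, and 173 of the 193 values lay below 0. The falls were densest among genes of the spindle and cytokinesis (22 of 33), then the kinetochore and spindle checkpoint (12 of 30), cyclins and their kinases (13 of 38), and condensin and chromatin assembly (8 of 24). They were sparser among the recombination repair genes (4 of 21), the deoxynucleotide genes (2 of 11) and the replication fork (6 of 36). Several promoters of these genes carry short sequences that are known, mostly from human and mouse cells, to bind the DREAM and MuvB complexes (the CHR element, often beside CCAAT boxes) or E2F factors. They are shown for 2 mitotic genes, Plk1 and Ect2, and for 2 replication helicase genes, Mcm5 and Mcm6, as windows from 250 bases before to 50 bases after the start in RefSeq annotation of the GRCr8 assembly. Capitals mark TTTGAA (the CHR element), CCAAT, and the E2F letters TTTCCCGC, TTTGGCGC, TTTGCCGC or TTTCGCGC, each read on both strands.
Plk1 (chr1:186147408-186147707, plus strand): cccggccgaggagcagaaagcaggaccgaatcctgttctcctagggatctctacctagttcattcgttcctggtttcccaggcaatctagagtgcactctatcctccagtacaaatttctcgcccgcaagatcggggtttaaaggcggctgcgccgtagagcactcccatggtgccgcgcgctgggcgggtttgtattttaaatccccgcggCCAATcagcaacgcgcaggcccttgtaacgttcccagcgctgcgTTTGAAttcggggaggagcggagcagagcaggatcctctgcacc
Ect2 (chr2:111966577-111966876, minus strand): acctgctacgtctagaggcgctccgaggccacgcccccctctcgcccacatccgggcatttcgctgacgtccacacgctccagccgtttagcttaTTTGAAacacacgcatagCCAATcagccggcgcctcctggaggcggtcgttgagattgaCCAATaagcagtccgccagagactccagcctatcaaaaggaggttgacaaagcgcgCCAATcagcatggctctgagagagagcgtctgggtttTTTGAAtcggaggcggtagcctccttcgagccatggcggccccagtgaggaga
Mcm5 (chr19:13488563-13488862, plus strand): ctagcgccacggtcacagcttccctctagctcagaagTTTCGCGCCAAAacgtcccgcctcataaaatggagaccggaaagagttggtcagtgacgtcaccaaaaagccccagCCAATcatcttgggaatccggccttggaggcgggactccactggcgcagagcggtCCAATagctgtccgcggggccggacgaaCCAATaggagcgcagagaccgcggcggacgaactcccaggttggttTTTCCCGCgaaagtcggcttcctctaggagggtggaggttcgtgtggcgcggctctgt
Mcm6 (chr13:42404303-42404602, minus strand): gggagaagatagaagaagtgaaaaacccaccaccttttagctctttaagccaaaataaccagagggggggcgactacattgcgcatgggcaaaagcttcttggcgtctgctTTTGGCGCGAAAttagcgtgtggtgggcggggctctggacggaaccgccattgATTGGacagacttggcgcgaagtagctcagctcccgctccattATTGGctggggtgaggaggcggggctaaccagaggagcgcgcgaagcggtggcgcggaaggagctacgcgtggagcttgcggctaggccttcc

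In the window of Plk1 the CHR letters begin 7 bases into the transcript with a CCAAT box 38 bases before the start. The window of Ect2 holds TTTGAA at -155 and -3 and CCAAT at 3 places. The windows of both helicase genes hold E2F letters and CCAAT boxes but no TTTGAA. In Mcm5 and Mcm6 the E2F letters on both strands overlap at 1 place, so that the capitals there run together. Windows were found for 53 of the 67 division genes that fell, 56 windows in all. TTTGAA was present in 34 of these 56 (60.7%), in 33.6% of the 113 windows of division genes that did not pass the test, and in 18.3% of all 33469 windows. It was in 23 of 29 windows of the spindle and kinetochore genes that fell and in 0 of 7 windows of the replication and deoxynucleotide genes that fell. The E2F letters were in 0 of those 29 windows and in 5 of those 7, against 2.14% of all windows. Over all division genes, the E2F letters were in 16.1% of the windows of those that fell and in 23% of those that did not pass. CCAAT was in 71.4% of the windows of division genes that fell and in 54% of those of division genes that did not pass. It was in 49.5% of the windows of other genes that fell and in 37.5% of all windows. These shares describe letters in a window and were not tested.

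The largest fall among genes of these lists was that of Rrm2, the regulated subunit of ribonucleotide reductase, which makes deoxynucleotides for DNA synthesis. It stood at 11.66, 11.69, 10.55 and 11.06 in control livers and at 5.57, 7.21, 8.07 and 7.12 in phenformin livers, and the lowest control liver was above the highest phenformin liver by more than 2 log2 units. It fell 19.0-fold (7.17 to 50.4; adjusted p = 0.00757). Rrm1, the other subunit, is regulated less strongly over the cell cycle. It stood at 10.16, 10.35, 9.84 and 10.01 against 9.15, 9.19, 9.29 and 9.38, with no overlap, and fell 1.78-fold (1.51 to 2.11; adjusted p = 0.00549). Tk1 and Tyms, the thymidine kinase and the thymidylate synthase, changed by -0.90 ± 0.25 and -0.53 ± 0.13 (log2 change ± SE) and did not pass (adjusted p = 0.127 and 0.0737). The probe set named Rrm2l1 fell 20.5-fold with array values close in order to those of Rrm2, and both may read the same transcripts.

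At the replication fork the helicase genes Mcm3, Mcm5 and Mcm6 fell and the other 10 measured Mcm genes did not pass. Mcm5 stood at 5.61, 5.70, 5.56 and 5.49 in control livers and at 4.72, 4.82, 5.05 and 4.73 in phenformin livers. The groups did not overlap, and the fall was 1.69-fold (1.46 to 1.97; adjusted p = 0.00501). Mcm6 fell 1.89-fold and Mcm3 1.48-fold. Prim1, the catalytic primase subunit, fell 2.21-fold (1.6 to 3.05), and its phenformin replicate 3, at 8.28, lay below the other phenformin livers at 9.06 to 9.30. Timeless, a fork protection factor, fell 1.43-fold (1.26 to 1.62). Pcna, the sliding clamp, changed by -0.47 ± 0.12 and Lig1, the ligase of lagging strand fragments, by -0.26 ± 0.08, without passing (adjusted p = 0.101 and 0.166). Of the repair genes, Fancd2 and Fanci, which form the central Fanconi anaemia complex, fell 1.63-fold and 1.65-fold, Brip1, a helicase of the same pathway, 1.51-fold, and Mms22l, a recombination factor at stalled forks, 1.69-fold.

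Of the 33 spindle and cytokinesis genes 22 fell and 11 did not pass, and of the 30 kinetochore genes 12 fell and 18 did not. Plk1, a kinase of mitotic entry and spindle assembly, stood at 7.61, 7.03, 6.74 and 7.18 in control livers and at 5.18, 5.70, 6.08 and 5.73 in phenformin livers. The lowest control value was above the highest phenformin value, and Plk1 fell 2.76-fold (1.81 to 4.21; adjusted p = 0.0203), a call lost without any 1 of 5 arrays. Ect2, an activator of RhoA at the cleavage furrow, stood at 8.12, 7.69, 7.34 and 7.66 against 5.11, 5.66, 6.50 and 5.84 and fell 3.78-fold (2.23 to 6.43). For both genes, as for Rrm2, phenformin replicate 3 was the highest and replicate 1 the lowest of the treated livers. Ckap2, a microtubule-associated protein, fell 5.33-fold, and so did the pseudogene Ckap2-ps3 by 3.89-fold, whose probes may read the same transcripts. Hmmr, a spindle and hyaluronan binding protein, fell 3.20-fold. All 33 spindle genes had values below 0, with a median of -0.70. Of 44 measured kinesins, the motors that move along microtubules, 7 fell and 0 rose (15.9%, against 0.901% of all genes falling), and all 7 are mitotic motors. Kif11, which slides spindle poles apart, stood at 7.41, 7.42, 6.88 and 7.12 in control livers and at 5.74, 5.85, 6.18 and 6.02 in phenformin livers, without overlap, and fell 2.39-fold (1.79 to 3.20). Kif20b and Kif23, motors of cytokinesis, fell 2.08-fold and 1.73-fold, while Kif2c, which depolymerises microtubules at kinetochores, had a change of -0.66 ± 0.17 and an adjusted p of 0.104. At the kinetochore Bub1 and Ttk, kinases of the spindle checkpoint, fell 2.36-fold and 2.29-fold, the kinesin Cenpe 2.19-fold and the Ndc80 complex subunit Spc25 1.6-fold. Cenpk, a subunit of the inner kinetochore, and Sgo2, a protector of cohesion, changed by -0.48 ± 0.11 and -0.78 ± 0.19 and did not pass.

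Among cell cycle regulators, Ccna2, cyclin A2, fell 4.59-fold (2.65 to 7.96), Cdk1, the kinase that drives mitosis, 2.27-fold (1.82 to 2.83), and Cdkn3, a phosphatase that acts on it, 2.12-fold. Cdk1 stood at 6.19, 5.91, 5.95 and 5.85 in control livers and at 4.6, 4.86, 5.05 and 4.66 in phenformin livers, and the groups did not overlap. E2f8, a repressor of the E2F family, fell 1.49-fold and the ubiquitin-conjugating enzyme Ube2c, which acts in anaphase, 1.86-fold. Cyclins and kinases of earlier phases were flat or did not pass, such as Ccnd2, cyclin D2, at -0.36 ± 0.09 (adjusted p = 0.0592). Cdkn1a, the p21 inhibitor, had values of 8.39, 8.23, 8.90 and 6.99 against 6.66, 7.29, 6.79 and 6.21. Control replicate 4 overlapped the phenformin livers, and the change of -1.39 ± 0.37 did not pass (adjusted p = 0.104). None of 20 measured p53 target genes was called at adjusted p under 0.05 in limma. At an unadjusted p under 0.05 in limma 3 were lower and 0 higher (5.86% and 4.78% of all genes were). In chromatin, the condensin genes Ncapg, Ncaph, Smc2 and Smc4 fell 2.88-fold, 1.67-fold, 1.77-fold and 1.61-fold. Of 49 histone genes 6 fell and 0 rose (12.2%, against 0.901% of all genes falling), led in size by Hist2h3c2, an H3 gene, at 3.04-fold, and joined by Hist1h2ail1 (2.25-fold), Hist1h2ah (2.18-fold) and H2ac4 (2.05-fold), H2A genes. Histone genes of a class are nearly identical in sequence, so which copy a probe set reads is uncertain. The calls of Hist2h3c2 and Ube2c were each lost without any 1 of 6 arrays.

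The size of these falls is limited by background for many of the genes. Of the 67 division genes that fell, 26 had a phenformin mean below 5.22, the 95th percentile of the chemosensory receptors, and 3 had a control mean below it. Leaving out control replicate 1 of day 3 lowered the count from 67 to 30, and leaving out genes with a mean below the median gene lowered it to 25, since many division genes lie below that gene.

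**Figure D2:**
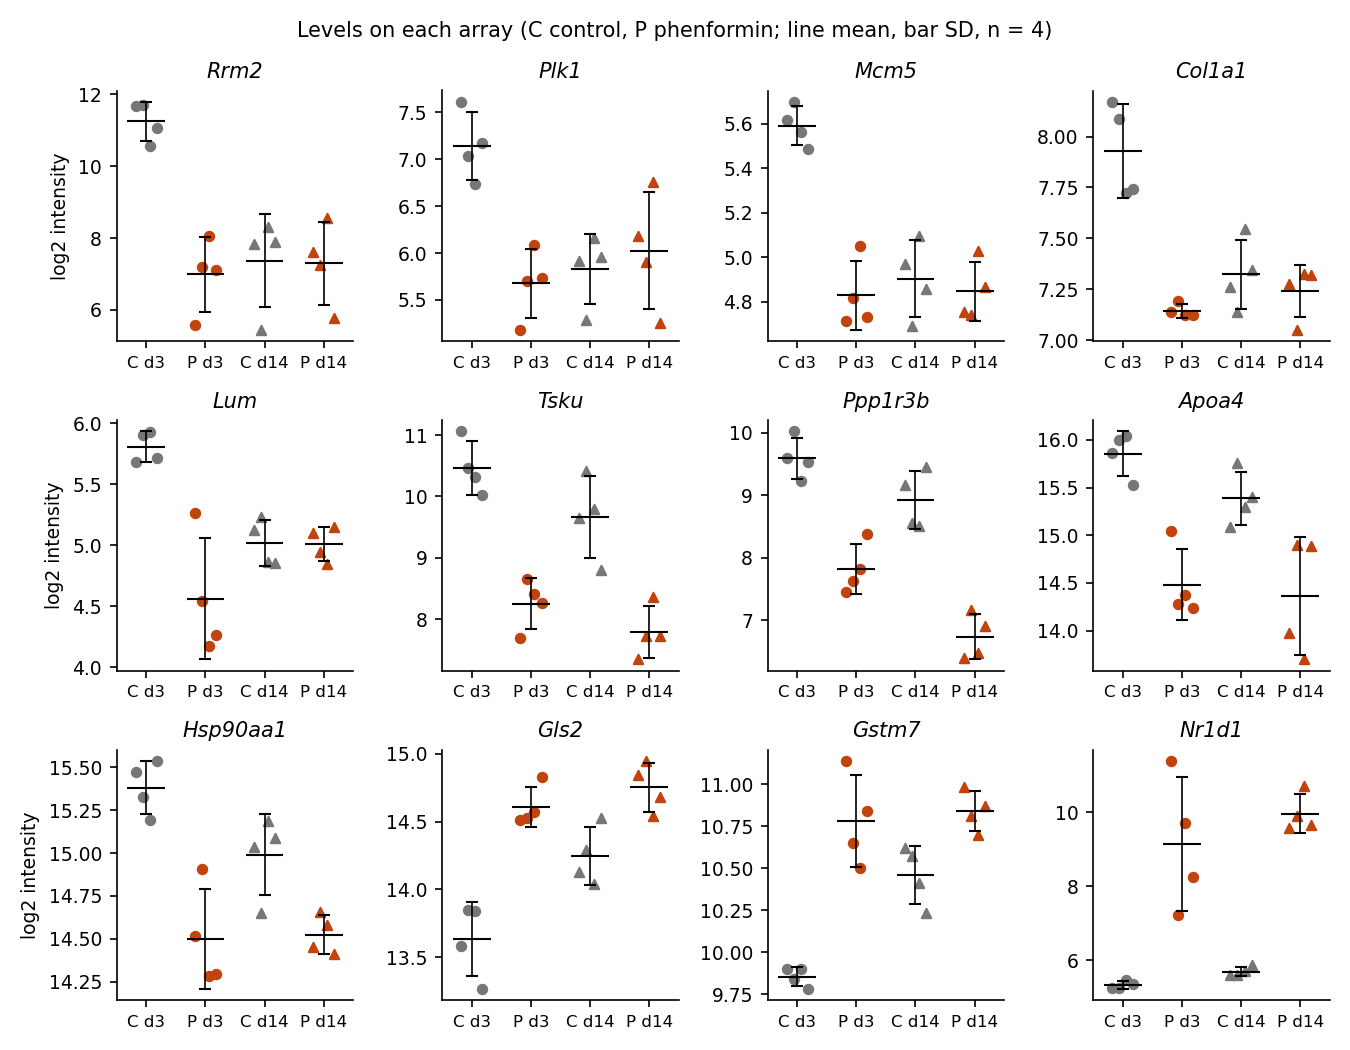
Log2 intensity of 12 named genes on each of the 16 arrays, with the mean and SD of each group (n = 4; C control, P phenformin, d3 and d14 days of feeding). For Rrm2, Plk1, Mcm5 and Lum the control livers of day 3 have the highest mean of the 4 groups, while Tsku, Ppp1r3b and Nr1d1 separate by treatment at both days.

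Matrix genes of fibroblasts and stellate cells also fell. Over 3 lists with 71 measured genes, 12 fell (16.9%, against 0.901% of all genes), 0 rose and 59 did not pass, and 66 of the 71 values lay below 0 with a median of -0.23. Of 17 collagen chains 6 fell (35.3%, against the same 0.901%). These were both chains of type I collagen, 2 chains of type VI collagen and, picked once their values were known, Col3a1 and Col14a1, which go with type I fibrils. Col1a1 stood at 8.17, 8.09, 7.72 and 7.74 in control livers and at 7.14, 7.19, 7.12 and 7.12 in phenformin livers. The phenformin livers lay close together and all below the controls, and the fall was 1.73-fold (adjusted p = 0.00622). Col6a1 and Col6a2, microfibril collagens, fell 1.31-fold (1.19 to 1.44) and 1.35-fold (1.23 to 1.5). The chains of basement membrane collagen IV were not among the falls. Of the proteoglycans and glycoproteins, Lum, lumican, stood at 5.68, 5.90, 5.92 and 5.71 against 5.26, 4.55, 4.17 and 4.26 and fell 2.37-fold. The phenformin livers spread over more than 1 log2 unit and lay below every control liver. All of them but replicate 1 lay below 5.22, the 95th percentile of the chemosensory receptors. Dcn, decorin, fell 1.98-fold (1.44 to 2.71), Mfap4, a glycoprotein of elastic fibres, 2.07-fold (1.61 to 2.65), and Sparc, a collagen-binding protein, 1.48-fold (1.23 to 1.77). The calls of Dcn and Sparc were each lost without any 1 of 9 arrays, and that of Col14a1 without any 1 of 8. Of the enzymes that build and cut matrix, Loxl2, a lysyl oxidase, and Mmp2, a gelatinase, fell 1.35-fold and 1.34-fold, and Timp1, an inhibitor of matrix proteases, changed by -0.45 ± 0.12 (adjusted p = 0.119).

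Of 18 measured markers of stellate cells 1 fell (5.56%, against 0.901% of all genes falling). It was Colec11, a soluble collectin, at 1.36-fold (1.18 to 1.56), a call lost without any 1 of 6 arrays. In limma 5 of the 18 were lower and 0 higher at an unadjusted p under 0.05 (5.86% and 4.78% of all genes were). Of the 18 values 15 lay below 0, with a median of -0.18. Vim, vimentin, and Reln, reelin, changed by -0.69 ± 0.16 and -0.40 ± 0.12 and did not pass (adjusted p = 0.0527 and 0.163). The mean level of the 18 markers ranged from 8.19 to 8.40 in control and from 8.07 to 8.17 in phenformin livers, without overlap, and the mean of the 71 matrix genes from 7.76 to 7.85 and from 7.52 to 7.60. The stellate marker level thus moved with the matrix genes, and its part in their falls was not tested. With only the 8 arrays of day 3 in the fit, 5 of the 71 matrix genes fell, in place of 12, and without control replicate 1 of day 3 it was 7.

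Markers of other non-hepatocyte cells follow. Among 20 sinusoidal endothelial markers 1 fell (5%, against 0.901% of all genes falling). Of the 20, 4 were lower and 1 higher at an unadjusted p under 0.05 in limma (5.86% and 4.78% of all genes were). The marker that fell was Stab2, a scavenger receptor for hyaluronan, at 1.47-fold (1.22 to 1.77; lost without any 1 of 12 arrays). Lyve1 and Flt4 were at -0.49 ± 0.15 and -0.43 ± 0.11 without passing (adjusted p = 0.175 and 0.0891). In limma, 0 of 14 Kupffer cell markers, 11 bile duct markers, 18 T and NK cell markers, 8 B cell markers, 13 neutrophil and monocyte markers and 8 erythroid markers were called. At an unadjusted p under 0.05 in limma were 0, 3, 0, 0, 2 and 1 of them, where 10.6% of all genes were. Of the 3 bile duct markers 1 was higher and 2 were lower, and the neutrophil, monocyte and erythroid markers were lower. The mean of the Kupffer cell markers was 9.51 ± 0.34 in control and 9.76 ± 0.53 in phenformin livers (SD, n = 4), and that of the T and NK cell markers 5.56 ± 0.10 and 5.64 ± 0.12. Epcam, an epithelial adhesion molecule of bile ducts, had a change of 0.81 ± 0.19 (adjusted p = 0.0615), and Krt19, a keratin of the same cells, one of -0.49 ± 0.16 (adjusted p = 0.216).

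**Figure D3:**
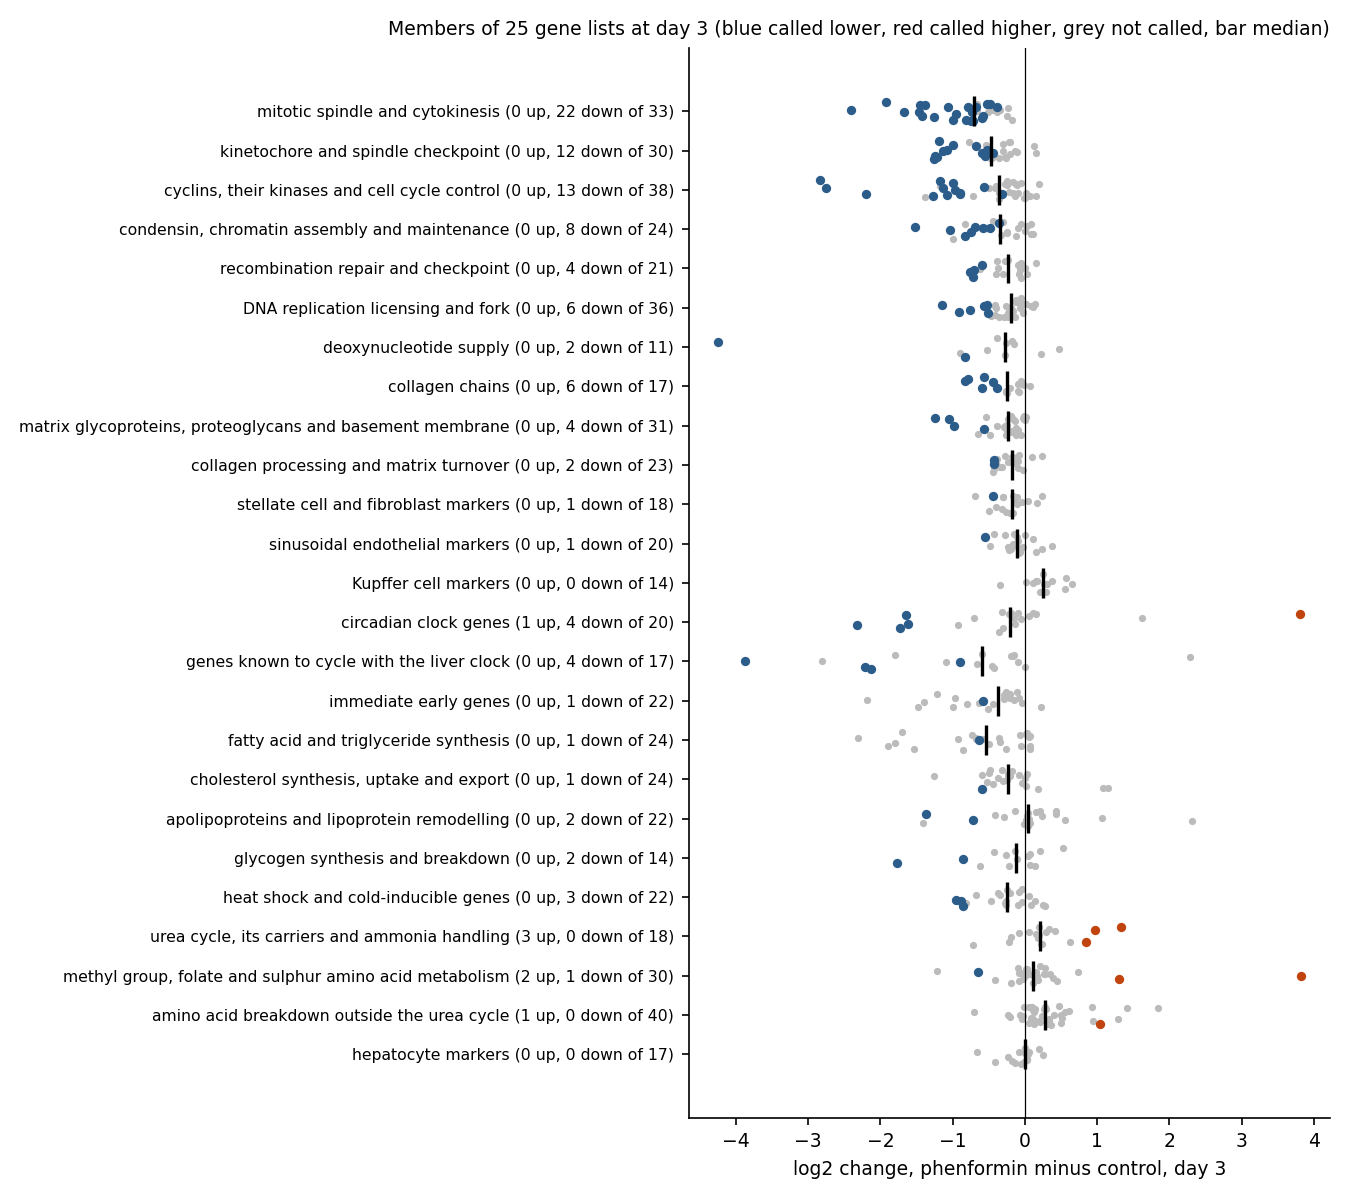
Log2 change (phenformin minus control, day 3) of each measured member of 25 gene lists, with the median as a black bar. Blue points were called lower, red points higher and grey points did not pass. The spindle list lies wholly below 0 and the hepatocyte marker list around 0.

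In the liver the proteins CLOCK and BMAL1 drive the repressors Per, Cry and Bhlhe40 and the nuclear receptor gene Nr1d1, whose protein in turn represses Bmal1 and metabolic genes. Of 20 measured clock genes 1 rose and 4 fell, and of 17 genes known to follow the clock in liver 4 fell and 0 rose, against 1.15% called of all genes. Nr1d1 stood at 5.26, 5.25, 5.47 and 5.35 in control livers and at 11.39, 7.23, 9.71 and 8.25 in phenformin livers. The control livers were near the background and the phenformin livers spread over more than 4 log2 units, all above the controls. The call of Nr1d1 was lost when only day 3 arrays were fitted (adjusted p = 0.065 in limma). Per2 stood at 7.99, 8.50, 7.55 and 7.82 against 6.04, 6.08, 6.08 and 6.74, with no overlap, and Cry1 at 8.85, 8.94, 8.75 and 8.73 against 6.87, 7.53, 7.05 and 7.22. Nr1d2, the close relative of Nr1d1, had a change of 1.62 ± 0.45 without passing (adjusted p = 0.13), and Dbp, an output factor with D-box binding, stood at 6.10, 5.77, 6.15 and 5.89 against 6.66, 5.56, 5.44 and 5.50, so that the groups overlapped.

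Of the followers of the clock, Usp2, a deubiquitinase, stood at 8.50, 8.82, 8.93 and 7.18 in control livers and at 6.33, 6.31, 6.36 and 5.88 in phenformin livers. Replicate 4 was the lowest of both groups, the groups did not overlap, and Usp2 fell 4.39-fold (2.56 to 7.51; adjusted p = 0.00978). Wee1, a kinase that holds back mitosis, is known both as a clock follower and as a cell cycle gene. It stood at 6.84, 7.03, 6.71 and 6.84 against 5.83, 6.07, 5.94 and 5.97, with no overlap, and fell 1.87-fold (1.54 to 2.26). Tsku, a secreted protein of the small leucine-rich family, stood at 11.06, 10.46, 10.31 and 10.03 against 7.69, 8.66, 8.41 and 8.26, again with no overlap. Upp2, a uridine phosphorylase, stood at 7.73, 6.59, 8.54 and 6.04 against 11.25, 8.78, 9.38 and 8.64, and its change of 2.29 ± 0.75 did not pass (adjusted p = 0.226). The sources used here do not give the hour at which the livers were taken. Immediate early genes, which respond within an hour to growth signals and stress, had values below 0 for 21 of 22 genes and a median of -0.37. Over all genes 52.0% of values lay above 0. Of the 22 only Fosb, an AP-1 subunit, fell (4.55%, against 0.901% of all genes falling), by 1.49-fold (1.26 to 1.76). That call was lost without any 1 of 5 arrays and when only day 3 arrays were fitted. In limma 9 of the 22 were lower and 0 higher at an unadjusted p under 0.05 (5.86% and 4.78% of all genes were). The groups did not overlap for 6, all lower (4.17% of all genes). Junb, another AP-1 subunit, was at -1.48 ± 0.40 (adjusted p = 0.119).

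Of 18 genes of the urea cycle, its carriers and ammonia handling 3 rose and 0 fell (16.7%, against 0.249% of all genes rising), with 14 values above 0. Asl, argininosuccinate lyase, stood at 12.84, 12.46, 13.10 and 12.34 in control livers and at 14.08, 13.95, 14.22 and 13.85 in phenformin livers. Gls2, the liver glutaminase that feeds ammonia to the cycle, stood at 13.58, 13.85, 13.84 and 13.27 against 14.51, 14.53, 14.57 and 14.83. Car5a, the mitochondrial carbonic anhydrase that supplies bicarbonate to the cycle, stood at 9.15, 9.02, 8.87 and 8.64 against 9.75, 9.62, 9.90 and 9.78. In each of the 3 genes every phenformin liver was above every control liver, and the rises were 2.52-fold, 1.96-fold and 1.79-fold. The call of Car5a was lost when any of 8 of the 16 arrays was left out. Ass1 and Cps1, the enzymes before Asl in the cycle, changed by 0.29 ± 0.10 and 0.20 ± 0.07 and did not pass, and Slc7a2, an arginine carrier, by 0.63 ± 0.20 (adjusted p = 0.22).

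Among 30 genes of methyl group, folate and sulphur amino acid metabolism 2 rose and 1 fell (10%, against 1.15% called of all genes). Inmt, a methyltransferase of tryptamine and related amines, stood at 9.72, 8.59, 9.75 and 7.75 in control livers and at 13.46, 13.02, 13.17 and 11.43 in phenformin livers, where the lowest phenformin value was above the highest control value by more than 1 log2 unit. Gnmt, which uses glycine to dispose of methyl groups, stood at 15.10, 15.41, 15.20 and 15.11 against 16.95, 15.88, 16.85 and 16.33, and its call was lost without any 1 of 6 arrays. Gatm, which makes the creatine precursor guanidinoacetate, fell 1.57-fold (1.33 to 1.85; adjusted p = 0.00978), a call lost when only day 3 arrays were fitted. Csad, the decarboxylase of taurine synthesis, had 14.53, 14.67, 14.15 and 14.98 against 13.37, 13.22, 13.62 and 13.28 with no overlap, and its change of -1.21 ± 0.29 did not pass (adjusted p = 0.0564). Of 40 other genes of amino acid breakdown only Agxt, the glyoxylate aminotransferase, rose (2.5%, against 0.249% of all genes rising), by 2.06-fold (1.48 to 2.87). Of the 40 values 33 lay above 0, where 52.0% of all genes did, and the median was 0.27, against a median of 0.01 over all genes. The call of Agxt was lost when any of 8 of the 16 arrays was left out and with quantile normalization. Slc1a4, a carrier of alanine, serine and cysteine, stood at 6.92, 6.71, 6.56 and 6.94 against 7.86, 8.21, 7.59 and 7.86, with no overlap, and rose 2.14-fold (1.57 to 2.90; adjusted p = 0.0186).

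A pair of glutathione S-transferases of the mu class, enzymes that conjugate electrophiles, rose among 29 measured transferase genes (6.90%, against 0.249% of all genes rising). Of the 29 values 26 lay above 0, where 52.0% of all genes did. Gstm7 stood at 9.90, 9.84, 9.90 and 9.78 in control livers and at 11.14, 10.65, 10.50 and 10.84 in phenformin livers, with no overlap, and rose 1.90-fold (1.59 to 2.28; adjusted p = 0.00501). Gstm4 stood at 11.92, 12.71, 11.98 and 11.63 against 12.94, 13.15, 13.15 and 13.25. It rose 2.09-fold (1.64 to 2.67; adjusted p = 0.00757), and control replicate 2 came closest to the treated livers. The call of Gstm4 was lost when only day 3 arrays were fitted (adjusted p = 0.063 in limma). Genes of the mu class are alike in sequence, so probe sets may read more than 1 of them. Neither is in the list of NRF2 targets used here, of which 0 of 20 were called in limma (5 at an unadjusted p under 0.05, where 10.6% of all genes were). Its members Nqo1, a quinone reductase, and Gclc, the catalytic subunit of glutathione synthesis, had changes of 0.93 ± 0.30 and -0.79 ± 0.18 (adjusted p = 0.219 and 0.0527). Of 57 cytochrome P450 genes of families 1 to 4 only Cyp2c22 fell, by 1.65-fold (1.34 to 2.04), and 0 rose, a share of 1.75% near the 1.15% called of all genes. Cyp8b1, the 12-alpha-hydroxylase of bile acid synthesis, stood at 11.30, 10.77, 10.68 and 10.09 in control livers and at 15.01, 12.27, 14.55 and 12.61 in phenformin livers, with replicates 1 and 3 well above replicates 2 and 4. Its call of higher was lost without any 1 of 5 arrays and when only day 3 arrays were fitted.

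Glycogen, lipid and lipoprotein genes changed in a few members each. Ppp1r3b, the subunit that brings protein phosphatase 1 to glycogen in liver, stood at 9.59, 10.03, 9.23 and 9.54 in control livers and at 7.46, 7.63, 7.82 and 8.38 in phenformin livers. The groups did not overlap, and it fell 3.42-fold (2.36 to 4.96; adjusted p = 0.00622). Gbe1, the branching enzyme, stood at 15.70, 15.90, 15.53 and 15.34 against 15.04, 14.73, 14.49 and 14.78 and fell 1.81-fold (1.42 to 2.31). These were the 2 calls among 14 glycogen genes (14.3%, against 0.901% of all genes falling). Stbd1, an anchor of glycogen, was at -0.62 ± 0.19 and Ugp2, which makes UDP-glucose, at 0.52 ± 0.22, neither passing. Of 22 genes of lipoproteins 2 fell and 0 rose (9.09%, against 0.901% of all genes falling). Apoa4, an apolipoprotein of triglyceride-rich particles, stood at 15.86, 16, 16.04 and 15.52 against 15.04, 14.28, 14.37 and 14.24 and fell 2.59-fold (1.76 to 3.80; adjusted p = 0.0185). That call was lost without any 1 of 5 arrays. Mttp, which loads lipid onto apolipoprotein B, stood at 15.73, 15.64, 15.82 and 15.69 against 14.84, 15.16, 15 and 15 and fell 1.65-fold (1.34 to 2.02). No phenformin liver reached a control liver in either gene. Apof, an apolipoprotein of lipid transfer, had 11.56, 14.78, 15.77 and 14.96 in phenformin livers against 11.61 to 12.34 in control livers, and its change of 2.32 ± 0.88 did not pass (adjusted p = 0.326). Phenformin replicate 1 overlapped the controls.

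Of 24 genes of fatty acid and triglyceride synthesis 18 had values below 0, with a median of -0.54. Only Elovl5 fell (4.17%, against 0.901% of all genes falling), a call lost without any 1 of 7 arrays. In limma 8 of the 24 were lower and 0 higher at an unadjusted p under 0.05 (5.86% and 4.78% of all genes were). Pnpla3, a lipase of lipid droplets that insulin and SREBP-1c are known to raise, stood at 10.73, 9.22, 13.27 and 8.84 in control livers and at 6.48, 6.96, 5.57 and 7.55 in phenformin livers. The controls spread over more than 4 log2 units, all above the treated livers. Its call was lost when only day 3 arrays were fitted and without any 1 of 3 arrays. Slc2a5, the fructose transporter, fell 2.89-fold (1.76 to 4.74; adjusted p = 0.037), a call lost without any 1 of 9 arrays. Abcg2, an exporter of urate and many drugs, stood at 8.11, 8.24, 8.16 and 8.51 against 7.04, 6.98, 7.23 and 7.34 and fell 2.15-fold (1.71 to 2.72; adjusted p = 0.00622). Of 370 solute carriers 2 rose and 1 fell, a share of 0.811% near the 1.15% of all genes. Besides Slc1a4 the rise was that of Slc25a43, a mitochondrial carrier, at 6.48, 6.46, 6.51 and 6.57 against 7.07, 7.00, 7.10 and 7.10, a small but separate change of 1.48-fold (1.26 to 1.73). Aqp9, the channel through which hepatocytes take up glycerol, rose 1.52-fold (1.26 to 1.85; adjusted p = 0.0335), a call lost without any of the 8 arrays of day 3. Aqp9 was picked once its values were known.

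Of 22 heat shock and cold-inducible genes 3 fell and 0 rose (13.6%, against 0.901% of all genes falling), and 19 did not pass. Hsp90aa1, the inducible Hsp90, stood at 15.47, 15.32, 15.19 and 15.54 in control livers and at 14.52, 14.91, 14.28 and 14.29 in phenformin livers, with no overlap, and fell 1.84-fold (1.49 to 2.27; adjusted p = 0.00776). Fkbp4, a cochaperone of Hsp90 on steroid receptors, stood at 12.92, 13, 12.83 and 12.83 against 11.96, 12.09, 11.87 and 12.25 and fell 1.81-fold (1.47 to 2.22; adjusted p = 0.00776). The third call was Hspa4l, an exchange factor for Hsp70, which fell 1.94-fold (1.43 to 2.62), a call lost without any 1 of 7 arrays. Hsph1, of the same family, was at -0.67 ± 0.19 and Hspa8, the constitutive Hsp70, at -0.28 ± 0.17, and neither passed (adjusted p = 0.131 and 0.635). The pseudogenes Hsp90aa1-ps3 and Hsp90aa1-ps16 fell 1.71-fold and 1.89-fold, and their probes may read Hsp90aa1 itself. Of 21 chaperones of the endoplasmic reticulum and 25 genes of the ATF4 stress response 0 were called in limma. At an unadjusted p under 0.05 in limma were 3 of each, where 10.6% of all genes were. Herpud1, a reticulum stress gene, was at -0.88 ± 0.36 and Trib3, an ATF4 target, at 0.59 ± 0.24.

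Genes of hormone and cytokine signalling moved singly. Serpina7, the thyroxine-binding globulin, stood at 6.27, 6.16, 6.63 and 5.62 in control livers and at 9.25, 7.22, 7.97 and 8.54 in phenformin livers, with no overlap. Dio1, the deiodinase that activates thyroxine in liver, stood at 13.34, 12.91, 13.24 and 13.45 against 12.51, 11.88, 12.04 and 12.13, also with no overlap, and fell 2.14-fold (1.54 to 2.97; adjusted p = 0.0247), a call lost without any 1 of 6 arrays. They were the 2 calls among 16 thyroid hormone genes (12.5%, against 1.15% called of all genes). Il1r1, the interleukin-1 receptor, stood at 12.33, 13.39, 12.40 and 12.69 against 14.79, 15.15, 13.54 and 13.63, and Stat3 at 12.55, 12.30, 12.89 and 13.23 against 14.23, 14.51, 13.83 and 13.41. In both genes replicates 1 and 2 were the high phenformin livers, and each call was lost without any 1 of 11 arrays. The call of Serpina7 was lost without any 1 of 6. Stat6, the mediator of interleukin-4 signals, rose 1.48-fold (1.23 to 1.78), a call lost without any 1 of 10 arrays. Of 19 complement genes C4a and C4b rose (10.5%, against 0.249% of all genes rising), by 1.55-fold (1.26 to 1.89) and 1.57-fold (1.27 to 1.95). Their sequences are nearly identical, so they may be 1 result. The calls were lost without any 1 of 7 and 11 arrays, and in both the lowest phenformin liver lay below the highest control liver. Igf1 and its binding protein gene Igfbp3 changed by -0.36 ± 0.15 and -0.72 ± 0.22, and neither passed (adjusted p = 0.36 and 0.189). In the nuclear receptor family, beside Nr1d1, Nr2f2 (COUP-TFII) and Nr5a2 (LRH-1, an activator of bile acid genes) rose 1.32-fold (1.18 to 1.48) and 1.42-fold (1.21 to 1.68). Their calls were lost without any 1 of 3 and 7 arrays, and both when only day 3 arrays were fitted. Nr2f2 stood at 8.11, 8.09, 8.08 and 8.11 against 8.65, 8.38, 8.51 and 8.48, so its small change was much larger than the spread of the controls.

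Large families of housekeeping and mitochondrial genes showed no call. In limma 0 of 168 cytosolic ribosomal protein genes, 80 mitochondrial ribosomal protein genes, 65 proteasome genes, 54 nuclear genes of complex I and 63 of complexes II to V were called. Their medians were -0.05, 0.03, 0.14, 0.03 and 0.07 on the log2 scale. Of the 65 proteasome values 54 lay above 0, 15 genes were higher and 1 lower at an unadjusted p under 0.05 (4.78% and 5.86% of all genes were), and the groups did not overlap for 8, all higher (3.51% of all genes). In the citrate cycle and pyruvate list 1 of 27 genes fell (3.70%, against 0.901% of all genes falling). It was Dlat, the acetyltransferase of pyruvate dehydrogenase, at 1.62-fold (1.31 to 2). That call was lost without any 1 of 4 arrays and when only day 3 arrays were fitted (adjusted p = 0.129 in limma). Of 24 autophagy genes 1 rose (4.17%, against 0.249% of all genes rising). It was Atg13, a subunit of the initiating kinase complex, at 1.40-fold (1.22 to 1.61), a call lost without any 1 of 6 arrays. Of 60 lists 27 held no called gene, among them glycolysis, gluconeogenesis, fatty acid oxidation, AMPK subunits, biguanide transporters, insulin signalling, hypoxia, iron and interferon genes. Of the 22 glycolysis values 18 lay below 0, with a median of -0.14. At an unadjusted p under 0.05 in limma 8 glycolysis genes were lower and 0 higher (5.86% and 4.78% of all genes were). Of 12 gluconeogenesis genes 3 were lower and 0 higher at that threshold.

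Of the called genes, 97 of the 199 that fell and 40 of the 55 that rose lay in none of the 60 lists. Among the rises Pbld1, a phenazine biosynthesis-like protein, stood at 12.44, 12.17, 12.44 and 11.78 in control livers and at 13.30, 12.89, 13.33 and 13 in phenformin livers, and rose 1.89-fold (1.5 to 2.39; adjusted p = 0.00978). Cpne8, a calcium-dependent membrane-binding protein, stood at 10.09, 9.93, 10.10 and 10.36 against 11.15, 11.36, 11 and 11.06 and rose 2.03-fold (1.56 to 2.64; adjusted p = 0.00997). Neither gene had overlapping groups. Casp6, a caspase, rose 1.59-fold (1.27 to 1.99; lost without any 1 of 11 arrays), Cryl1, a dehydrogenase of the glucuronate pathway, 2.30-fold (1.59 to 3.32; lost without any 1 of 6 arrays), and Mbnl3, a splicing regulator, 1.99-fold (1.5 to 2.63). The call of Mbnl3 was lost without any 1 of 4 arrays and when only day 3 arrays were fitted. The genes that follow were picked once their values were known. Rbl2, which encodes the p130 subunit of the DREAM complex, stood at 9.77, 9.78, 9.87 and 9.84 against 10.24, 10.18, 10.24 and 10.22. The phenformin livers lay close together and all above the controls, and Rbl2 rose 1.33-fold (1.16 to 1.52; adjusted p = 0.0437), a call lost without any 1 of 12 of the 16 arrays. Hpgd, which inactivates prostaglandins, stood at 6.51, 6.06, 6.35 and 6.33 against 6.98, 7.32, 7.07 and 6.81 and rose 1.66-fold (1.39 to 1.98; adjusted p = 0.00776), while Ptgs2, which makes them, stood at 5.80, 5.59, 5.33 and 5.49 against 5.07, 5.07, 5.03 and 5.01 and fell 1.42-fold (1.22 to 1.67; adjusted p = 0.0291). Both were separate between groups, and Ptgs2 ended at the level of the background, its call being lost without any 1 of 7 arrays. Clk1 and Clk4, kinases of splicing factors, fell 1.74-fold (1.35 to 2.26) and 1.62-fold (1.31 to 2), calls lost without any 1 of 9 and 6 arrays. Tra2a, a splicing factor, fell 1.42-fold (1.21 to 1.65), a call lost without any 1 of 5 arrays and when only day 3 arrays were fitted. Soat2, which esterifies cholesterol in hepatocytes, fell 1.45-fold (1.24 to 1.69; adjusted p = 0.0223), and Acsl3, an acyl-CoA synthetase of lipid droplets, fell 2.11-fold (1.64 to 2.72; adjusted p = 0.00776). Both calls were lost when only day 3 arrays were fitted, and that of Soat2 also without any 1 of 5 arrays.

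Set beside day 14, the genes called at day 3 divided by function. Of the 55 genes that rose at day 3, 54 had a value above 0 at day 14, 35 kept at least 0.5 of their log2 change and 10 were called higher there (0.145% of all genes were). Of the 120 genes that fell outside the cell division and matrix lists, 96 had a value below 0 at day 14, with a median of -0.77 at day 3 and -0.34 at day 14. Of the 67 division genes that fell, 14 had a value below 0 at day 14, with medians of -0.90 and 0.12. The 12 matrix genes had medians of -0.58 and -0.16. The direction of the value at day 3 was fixed by the call, and the size of a called change is on average larger than in a second sample, so only the values at day 14 are free. The control livers of day 3 had the highest mean of the 4 groups for 67 of the 67 division genes and for 115 of the 120 other falls, a trait that a call of lower at day 3 favours. The median level of these 67 genes was 6.34 in control livers of day 3, 5.34 in phenformin livers of day 3, 5.47 in control livers of day 14 and 5.59 in phenformin livers of day 14. The difference between the effects at both days was called for none of the 67, with a lowest adjusted p of 0.0925 in limma. It was called for 1 of all genes (0.00453%), and 1034 had an unadjusted p under 0.05 (4.68%). For called genes this difference contains the change at day 3 by which they were chosen.

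The 1 gene was Anlnl1, named for its likeness to the cytokinesis gene Anln and in none of the lists. It was picked once its values were known. It stood at 5.78, 5.58, 5.57 and 5.73 in control livers and at 4.43, 4.63, 4.14 and 4.20 in phenformin livers of day 3, without overlap. At day 14 it stood at 4.66, 4.25, 4.92 and 4.81 in control and at 4.80, 4.86, 5.22 and 4.81 in phenformin livers, all below the control livers of day 3. It fell 2.49-fold at day 3 (2.01 to 3.09; adjusted p = 0.00183), and the adjusted p of the difference between effects was 0.0284. The phenformin livers of day 3 and the control livers of day 14 lay below 5.22, the 95th percentile of the chemosensory receptors. Background thus limits the size of both.

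**Figure D4:**
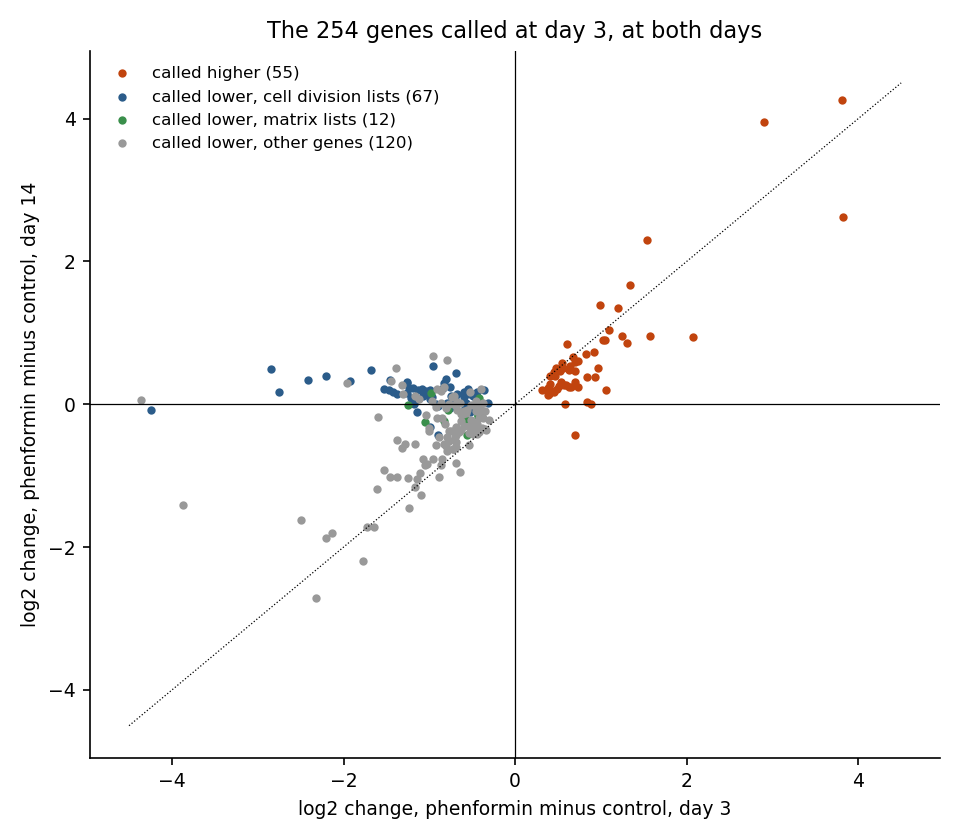
Log2 change at day 14 (vertical) against that at day 3 (horizontal) for the 254 genes called at day 3, phenformin minus control. The dotted line marks equal change. Of the 55 rises 54 lie above 0 on the vertical axis, of the 120 falls outside the division and matrix lists 96 lie below it, and of the 67 cell division genes 14 do.

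The list means on single arrays show the same contrast for whole lists, called and not called together. The mean of the 193 division genes was 6.54 ± 0.09 in control livers of day 3 (SD, n = 4), 6.02 ± 0.10 in phenformin livers of day 3, 6.03 ± 0.13 in control and 6.15 ± 0.15 in phenformin livers of day 14. The lowest control liver of day 3, at 6.43, was above the highest liver of every other group. The mean of the 22 heat shock and cold-inducible genes was 10.72 ± 0.06 and 10.44 ± 0.09 at day 3 and 10.62 ± 0.07 and 10.44 ± 0.07 at day 14 in control and phenformin livers. In that list the phenformin livers of both days lay low. The mean of the 40 amino acid breakdown genes was 13.06 ± 0.13 and 13.41 ± 0.15 at day 3 and 13.31 ± 0.12 and 13.56 ± 0.10 at day 14, and control replicate 4 of day 3 was its lowest array, at 12.88.

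**Figure D5:**
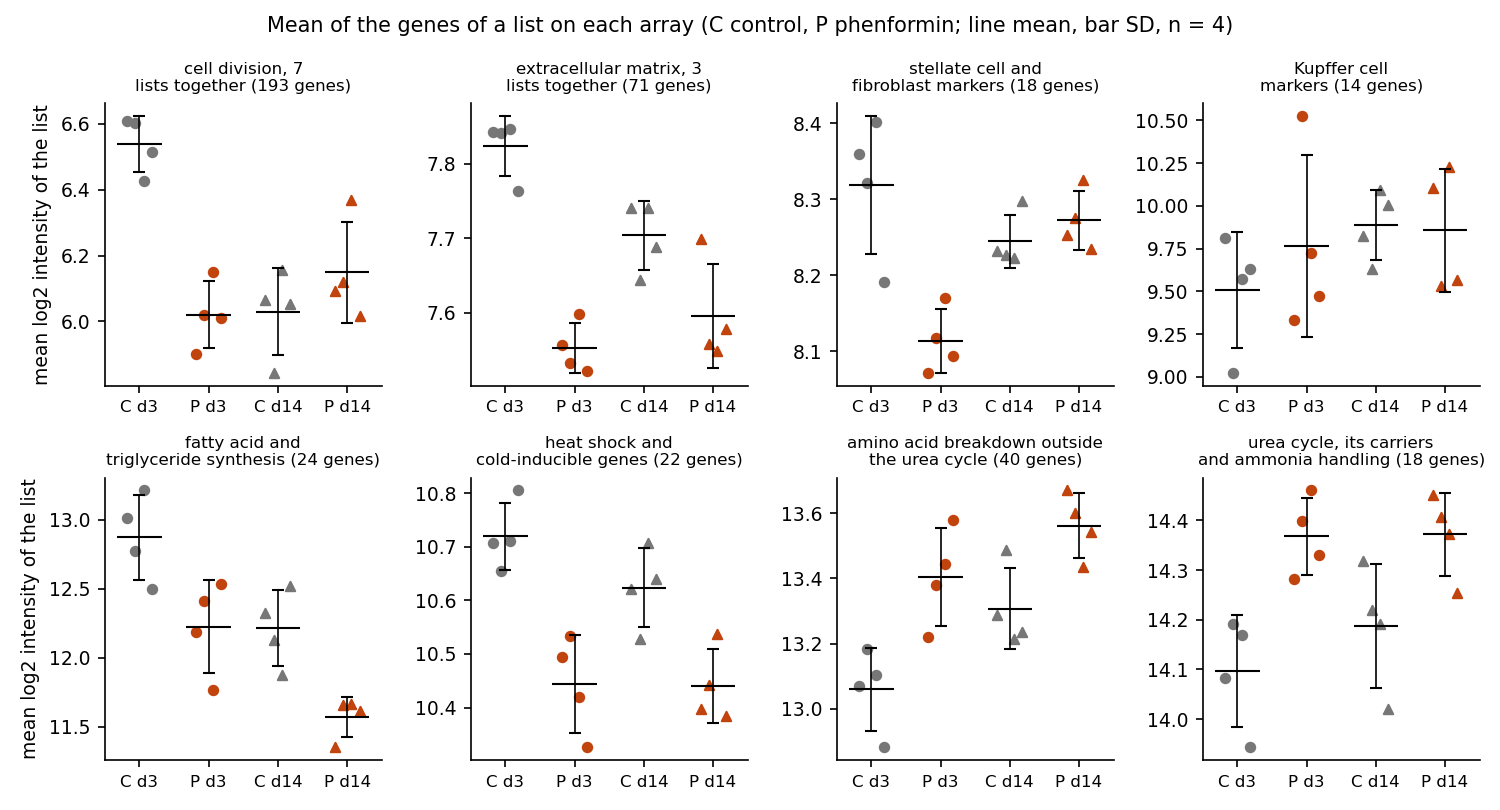
Mean log2 intensity of the genes of 8 lists on each of the 16 arrays, with the mean and SD of each group (n = 4; C control, P phenformin, d3 and d14 days of feeding). Division and matrix lists are highest in control livers of day 3, whereas the urea cycle list is higher in phenformin livers of both days.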

How the data were processed

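Total RNA of each liver was read on an Affymetrix whole-transcript rat array. The authors deposited 1 linear intensity per probe set and array, made with RMA per the submitters' processing notes. Of 68842 probe sets, 23446 carry 1 gene symbol in the platform annotation, 505 carry several and 44891 are unnamed here. Where a gene had several probe sets, that of highest mean was kept, giving 22093 genes. The chromosome of 335 of 23009 probe sets differed from that of their gene in GRCr8, and none of the called genes was among them. Values were taken to log2 with no pseudocount or filter. A model of 4 group means was fitted to 16 arrays with limma (version 3.58.1, under R version 4.3.3), which left 12 degrees of freedom, contrasts were tested with eBayes, and p-values were adjusted by Benjamini-Hochberg. The fit was tested on simulated data. Files hold intensities and no read depth, so the number of arrays limits precision.

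Named genes are the 20 largest rises and 20 largest falls by fold among calls without overlapping arrays, up to 4 called and 2 uncalled members of each list by p, a fixed set of liver genes, and up to 3 called members of symbol families with at least 2 calls or 10% called. Some are given only by count, and genes outside the rule are said to be picked once their values were known. Members and lists were chosen with earlier results of these data known. Medians of lists stand beside that of all genes, with no test of a list. Promoter windows were matched by symbol to RefSeq (GRCr8). Alternatives changed the prior, filter, normalization, arrays fitted, weights, block, probe set rule and pseudocount, or left out 1 array.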

Additional observations from a re-analysis of the deposited data

Results flagged for a closer look

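Among 296 groups of 4 arrays of the named genes, 13 held an array whose gap to the nearest other array passed Dixon's 95% critical value as a share of the group's range, and chance alone flags about 1 group in 20. Array and gap are given here as values, with no explanation.

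In phenformin livers of day 3, replicate 1 stood apart for 4 genes: Apoa4 (15.04 against 14.24 to 14.37; gap 0.834 of the range), Cenpk (5.03 against 5.4 to 5.46; 0.871), Dbp (6.66 against 5.44 to 5.56; 0.907) and Smc2 (6.64 against 6.93 to 6.96; 0.922). Replicate 4 stood apart for Hspa8 (17.73 against 18.43 to 18.55; 0.847), Pcna (9.59 against 9.24 to 9.27; 0.914), Per2 (6.74 against 6.04 to 6.08; 0.937) and Usp2 (5.88 against 6.31 to 6.36; 0.903). Replicate 2 was low for Stab2 (8.91 against 9.21 to 9.22; 0.947) and replicate 3 high for Sgo2 (4.82 against 4.54 to 4.58; 0.856). In control livers of day 3, replicate 1 was high for Brip1 (5.57 against 5.28 to 5.31; 0.892) and Cenpk (5.93 against 5.77 to 5.78; 0.925), and replicate 4 was low for Sparc (13.94 against 14.28 to 14.32; 0.893).

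The effect on Anlnl1 differed between the days, with a change of -1.32 at day 3 and 0.27 at day 14, a difference of 1.58 on the log2 scale and an adjusted p of 0.0284 in limma.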

How the results depend on the processing

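The count of 55 rises became 29 with the arrays of day 3 alone and 109 with array weights, and ranged from 17 to 64 when 1 array was left out. The count of 199 falls ranged from 142 to 296 over the settings with all groups' arrays or those of day 3, and from 85 to 213 without 1 array. It was 85 without control replicate 1 of day 3, 94 without control replicate 2, 96 without phenformin replicate 1 and 118 without phenformin replicate 2. The single gene whose effect differed between days was not called when genes below the median gene were left out (0 genes), 2 genes were called with array weights, and from 0 to 10 without 1 array. With the replicate block the counts were 49 rises (35 of the 55 among them), 176 falls (152 of the 199 among them) and 0 differences. Same-numbered arrays of day 3 correlated between -0.042 and 0.104, so the numbers were not taken to pair the livers. Leaving out genes on another chromosome, chosen after seeing the data, changed none of the 3 counts. Of 3820 fits of the named genes under these settings, 451 lost a call, 51 gained one and 0 changed direction. The causes were not tested. Signal over background limits genes near the level of the chemosensory receptors.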

Other observations

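Control replicate 4 stood low at both days for 3 genes. Per1, a clock repressor picked once its values were known, stood at 7.71, 7.89, 8.07 and 6.11 in control livers of day 3 and at 7.17, 7.37, 7.52 and 6.18 in those of day 14. Usp2 stood at 8.50, 8.82, 8.93 and 7.18, and at 8.24, 8.07, 8.25 and 6.67. Pck1, the cytosolic carboxykinase of gluconeogenesis, stood at 17.74, 17.82, 17.96 and 16.37, and at 17.86, 18.36, 18.50 and 16.69. In phenformin livers of day 3 replicate 4 was also the lowest for each of the 3 genes, at 5.45, 5.88 and 15.68. The labels do not say what replicates of 1 number share.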
